A study of Homo sapiens with 6 samples.

Results

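Mucins are the subject here: 10 genes, chosen by their symbols among the 58302 genes of the deposited table, 3 of them secreted and gel-forming (*MUC2*, *MUC5AC* and *MUC5B*) and 7 bound to the cell membrane (*MUC1*, *MUC3A*, *MUC4*, *MUC12*, *MUC13*, *MUC16* and *MUC20*). RNA-seq had been done on A549, an established cell line from a human lung adenocarcinoma. Cells in 3 libraries had been given DMSO, the solvent, and cells in 3 libraries 1.0 µM of S541, which the labels also call 5n, for 48 h. All 6 libraries share the line and the medium, and the treatment text gives 1 length of exposure for both groups. The design text of the series speaks of retinal profiles, whereas each sample is labelled A549. The line is 1 tumour's descendant, and nothing in the labels ties the replicates to separate cultures. The p-values then speak of the spread among these libraries, which may be technical only.

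Mucins are long glycoproteins whose repeated stretches, rich in serine and threonine, carry dense O-linked sugar chains. In the airway, gel-forming mucins are secreted, link up into polymers and make the mucus gel, with MUC5AC and MUC5B as its main parts and MUC2 best known from the intestine. Membrane mucins stand on the apical surface of epithelial cells, where a cleaved outer part can be shed and a short tail inside the cell can take part in signalling. MUC1 and MUC16 are known as tumour antigens in adenocarcinomas.

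The sequence units that make these genes mucins were read from GENCODE release 29 transcripts and are shown because they also limit how reads can be counted. Below is the most frequent exact unit, in reading frame, at the period with the best self-match, for a membrane mucin, a gel-forming mucin and the member with the most sequence in common with other genes. No base is in capitals, since the whole unit is the item.
MUC1: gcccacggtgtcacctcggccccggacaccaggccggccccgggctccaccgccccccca
MUC5AC: gctcctacaaccagcacaacctct
MUC20: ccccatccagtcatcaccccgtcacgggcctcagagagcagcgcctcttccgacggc
The *MUC1* unit of 60 bases occurred 19 times exactly, and stretches with this period made up 69.4% of its 3786 coding bases. The *MUC5AC* unit of 24 bases occurred 15 times, in stretches covering 24.4% of the coding bases. In the chosen *MUC1* transcript, 42.4% of all stretches of 50 bases occurred more than once, and in that of *MUC5AC* 21.4%. None of those of *MUC1* occurred in a transcript of another gene, against 0.4% of those of *MUC5AC*, which *MUC5B* holds too. For *MUC13* the share repeated was 0.0% and for *MUC16* 1.1%. Of *MUC20*, 70.3% occurred in other genes, the pseudogene *MUC20P1* and the noncoding *MUC20-OT1* first among them, so its reads cannot be assigned with certainty. The longest coding sequence annotated for *MUC2* had 393 bases and no such repeat, although all its exons together span 12667 bases.

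Total counts ranged from 13956648 to 17044139 per library. Of 15847 genes that passed the filter on low counts, 1298 changed (8.19%), 637 of them higher (4.02%) and 661 lower (4.17%) after S541, at an adjusted p under 0.05 in edgeR's quasi-likelihood test. Without 1 library that number was 628 (DMSO replicate 1), 1330 (DMSO replicate 2), 398 (DMSO replicate 3), 375 (S541 replicate 1), 349 (S541 replicate 2) or 550 (S541 replicate 3). On principal component 2, with 21.3% of the variance in log2 CPM, DMSO replicate 2 and S541 replicate 3 stood apart, at −36.2 and −21.4, while the first separated the groups. The epithelial keratins *KRT7* and *KRT8* had means of 1370 and 1530 CPM, but 9 of 16 epithelial and lung markers were under 1 CPM, the surfactant genes *SFTPA1* and *SFTPD* at 0. Of 17 markers of other cell types, 12 were under 1 CPM and *CD3E*, *HBB* and *KRT5* were at 0. The highest of the 17 were *COL1A1*, *CDH5* and *PDGFRB*, with means of 33.6, 10.1 and 4.96 CPM. The summed level of the 17 was 52.0 to 72.7 CPM in DMSO and 47.4 to 48.9 CPM in S541. Their part in the results below was not tested. In bulk RNA, fewer cells with a transcript and less of it in each cell cannot be told apart.

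After S541 the mucins moved in different directions. The gel-forming *MUC5AC* and *MUC2* rose 1.73-fold and 2.47-fold, whereas the membrane mucins *MUC1* and *MUC16* fell, to levels 1.96-fold and 1.64-fold below those in DMSO. *MUC13*, the most abundant member, was at about 100 CPM in both groups. Of the 10 members, 8 passed the filter on low counts, and 2 rose, 2 fell and 4 were not called, so 4 of 8 were called beside 8.19% of all genes. Groups did not overlap in 5 of the 8, beside 31.1% of all tested genes, and the median log2 fold change was 0.30 beside −0.002 over all tested genes. That median falls between *MUC13* (0.05) and *MUC12* (0.56), neither of them called, and does not show a shared rise. Those that passed had at least 0.636 CPM in all 6 libraries, except *MUC12*, which had it in 5. Levels below are CPM, counts relative to library totals scaled by TMM, fold changes are given as log2 of S541 over DMSO from edgeR with standard errors (SE), and adjusted p-values are those of its quasi-likelihood test, by the Benjamini-Hochberg method over all 15847 genes.

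**Figure D1:**
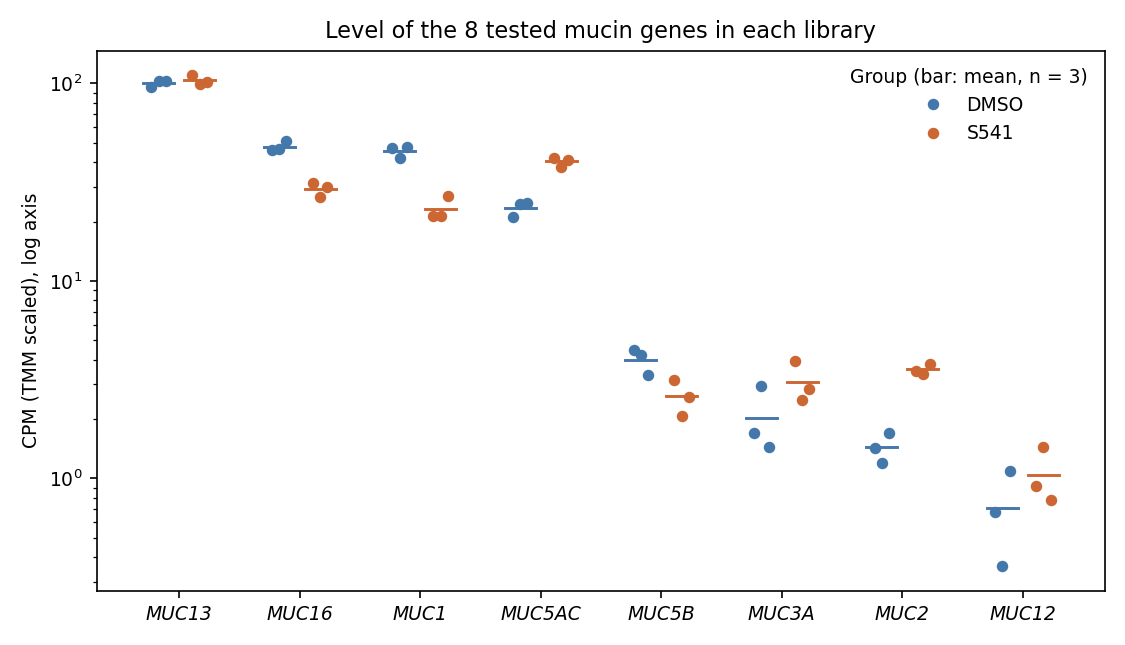
The y axis gives the level in CPM on a log scale for each of the 8 tested mucin genes (x axis), with 1 point a library (blue, DMSO; orange, S541) and a bar for the mean of 3. *MUC1* and *MUC16* lie lower and *MUC5AC* and *MUC2* higher after S541 with no overlap, while the points of *MUC13*, *MUC3A* and *MUC12* overlap.

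Among the gel-forming mucins, *MUC5AC* (ENSG00000215182, chromosome 11, 1157953 to 1201138, hg38), a mucin that goblet cells of the airway surface secrete, was the most abundant. Its level was 21.1, 24.4 and 24.7 CPM with DMSO (replicates 1 to 3) and 42.1, 37.7 and 41.2 CPM with S541 (replicates 1 to 3, and in this order throughout). Every S541 library was above every DMSO library. The mean rose from 23.4 ± 2.02 to 40.4 ± 2.32 CPM (SD, n = 3). On the log2 scale this was 0.79, with SE 0.11 and an adjusted p = 0.00775 in edgeR. Across 14 alternative fits, 6 of them without 1 library, it was called in each, with fold changes from 0.72 to 0.84 and adjusted p from 2.34e-06 to 0.0432.

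*MUC2* (ENSG00000198788, chromosome 11, 1074875 to 1110511) had few reads, with 21, 20 and 28 counts after DMSO and 50, 54 and 59 after S541. The levels were 1.42, 1.2 and 1.69 CPM in DMSO and 3.51, 3.38 and 3.81 CPM after S541. The lowest S541 library was thus above the highest DMSO library. It rose by 1.31 on the log2 scale (SE 0.21, 95% interval 0.82 to 1.8, adjusted p = 0.0125, edgeR). Its call was lost without S541 replicate 1 (1.32, adjusted p = 0.0512) or S541 replicate 2 (1.35, adjusted p = 0.0513), and the direction held in all 14 alternatives.

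*MUC5B* (ENSG00000117983, chromosome 11, 1223066 to 1262172), a mucin of the submucosal glands but not of them alone, was not called and had its value on the other side of 0. Its level was 4.45, 4.20 and 3.33 CPM in DMSO and 3.15, 2.07 and 2.59 CPM in S541. The groups did not overlap, but the gap between the nearest libraries was small. The log2 fold change was −0.62 (SE 0.22, 95% interval −1.14 to −0.10), with an unadjusted p = 0.0245 in edgeR and an adjusted p = 0.135. It was called in none of 14 alternatives (adjusted p from 0.133 to 0.340). The level of *MUC5AC* per kilobase of exon was 5.05, 6.19 and 7.91 times that of *MUC5B* with DMSO and 14.2, 19.4 and 17 times with S541. A noncoding antisense gene, *MUC5B-AS1*, overlaps 2.3% of the exon bases of *MUC5B*.

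These 3 genes lie side by side on chromosome 11 with *MUC6*, whose count was 12 over the 6 libraries. Within 200 kb of the cluster, 6 other genes of 10 passed the filter, and 0 were called by edgeR, beside 8.19% of all tested genes. A set of 6 genes is too small to set 0 called apart from that share. The 6 included *TOLLIP* (log2 fold change −0.15, adjusted p = 0.688, edgeR) next to *MUC5B* and *AP2A2* (−0.18, adjusted p = 0.227) beyond *MUC6*. The 2 rises were next to a member with a value below 0 and to neighbours that were not called.

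**Figure D2:**
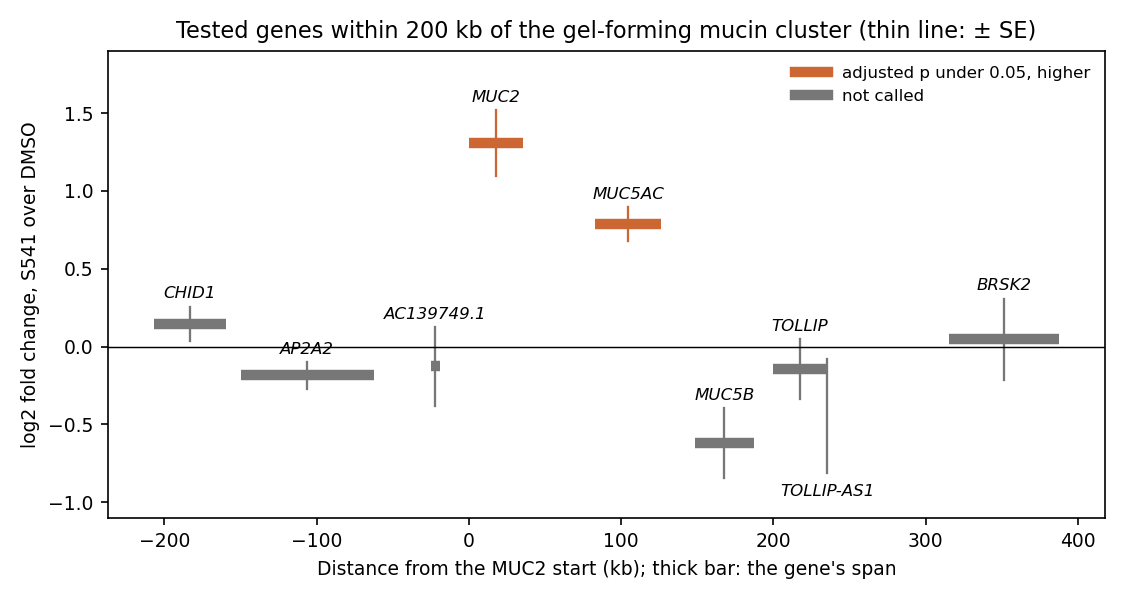
The x axis gives the distance in kb from the *MUC2* start and the y axis the log2 fold change of S541 over DMSO for each tested gene within 200 kb of the cluster (thick bar, the gene's span; thin line, ± SE from edgeR). *MUC2* (1.31) and *MUC5AC* (0.79) are the called genes, and *MUC5B* is at −0.62.

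Among the membrane mucins, *MUC1* (ENSG00000185499, chromosome 1, 155185824 to 155192916) had 701, 698 and 785 counts after DMSO, against 305, 341 and 418 after S541. The levels were 47.3, 41.9 and 47.5 CPM in DMSO and 21.4, 21.3 and 27.0 CPM after S541. All S541 libraries were well below all DMSO libraries, S541 replicate 3 least so. The mean of *MUC1* fell from 45.6 ± 3.19 to 23.3 ± 3.27 CPM (SD, n = 3). The log2 fold change was −0.97, with SE 0.13 and an adjusted p = 0.00707 in edgeR. The call held in all 14 alternatives, with fold changes from −1.09 to −0.90 and adjusted p of at most 0.0397. Another gene model overlaps 1.0% of its exon bases, on the same strand. Of 28 other tested genes within 200 kb, 1 fell and 0 rose, beside 8.19% of all tested genes called. The 1 that fell was *FDPS*, an enzyme of isoprenoid synthesis (−0.54, adjusted p = 0.0236, edgeR). On either side, *TRIM46* (−0.21, adjusted p = 0.561) and *THBS3* (0.03, adjusted p = 0.902) were not called.

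*MUC16* (ENSG00000181143, chromosome 19, 8848844 to 8981342), whose shed outer part is the serum tumour marker CA125, had a level of 46.2, 46.4 and 51.0 CPM in DMSO and 31.3, 26.7 and 29.8 CPM in S541. The groups were far apart in relation to their spread. *MUC16* fell by 0.71 on the log2 scale (SE 0.10, adjusted p = 0.00898, edgeR), and did so in all 14 alternatives, between −0.75 and −0.64, with adjusted p of at most 0.0462. With 43830 exon bases it is the longest member, and it had 3634 counts over the 6 libraries. Counts per gene do not show where along the exons these reads lay.

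*MUC13* (ENSG00000173702, chromosome 3, 124905442 to 124953819), a membrane mucin with EGF-like domains, was at 95.5, 103 and 103 CPM in DMSO and 110, 99.1 and 102 CPM in S541. The groups overlapped. Its log2 fold change was 0.05 (SE 0.08, adjusted p = 0.771, edgeR), with a 95% interval from −0.15 to 0.24, which leaves out changes of the size seen in *MUC1* or *MUC16*. Its values across 14 alternatives lay between 0.01 and 0.09. The neighbouring *HEG1*, which encodes a membrane protein with a mucin-like outer part and was named after its values were seen, fell from 114.8 ± 7.89 to 73.8 ± 4.19 CPM (−0.64, adjusted p = 0.00822, edgeR, n = 3).

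*MUC3A* (ENSG00000169894, chromosome 7, 100949555 to 100968346), an intestinal membrane mucin, was at 1.69, 2.94 and 1.45 CPM in DMSO and 3.93, 2.50 and 2.84 CPM in S541. DMSO replicate 2 lay within the S541 range. The log2 fold change was 0.60 (SE 0.32, 95% interval −0.13 to 1.33, adjusted p = 0.290, edgeR), and without DMSO replicate 2 it reached 0.97 (adjusted p = 0.084). An antisense gene overlaps 6.5% of its exon bases. *MUC12* (ENSG00000205277), next to it on chromosome 7 at 100969623 to 101018949, had from 6 to 18 counts in the DMSO libraries and from 12 to 23 in the S541 libraries. The groups overlapped, and at 0.56 (SE 0.45, adjusted p = 0.499, edgeR) the interval, −0.49 to 1.61, held changes in both directions at this depth. Of its transcript, 61.5% of stretches of 50 bases are repeated.

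*MUC4* (ENSG00000145113, chromosome 3, 195746765 to 195812277), a partner of the receptor ERBB2, had 0 counts in the 3 DMSO libraries, 3 each in S541 replicates 1 and 2 and 0 in S541 replicate 3. A count of 0 among the 48563813 counts of the DMSO libraries allows a level of up to 0.0618 CPM, for counting error only. *MUC20* (ENSG00000176945, chromosome 3, 195720882 to 195741123) had 3 counts in DMSO replicate 2, 1 in S541 replicate 1 and 0 in the other 4 libraries. The overlapping noncoding *MUC20-OT1*, which covers 42.8% of the *MUC20* exon bases on the same strand, was at 14.5 CPM in DMSO and 16.1 CPM in S541 (0.15, adjusted p = 0.441, edgeR). *MUC4* and *MUC20* did not pass the filter on low counts. Tested with no such filter, they had adjusted p = 0.357 and 0.728 in edgeR, and a difference in them was not detectable at this depth.

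**Figure D3:**
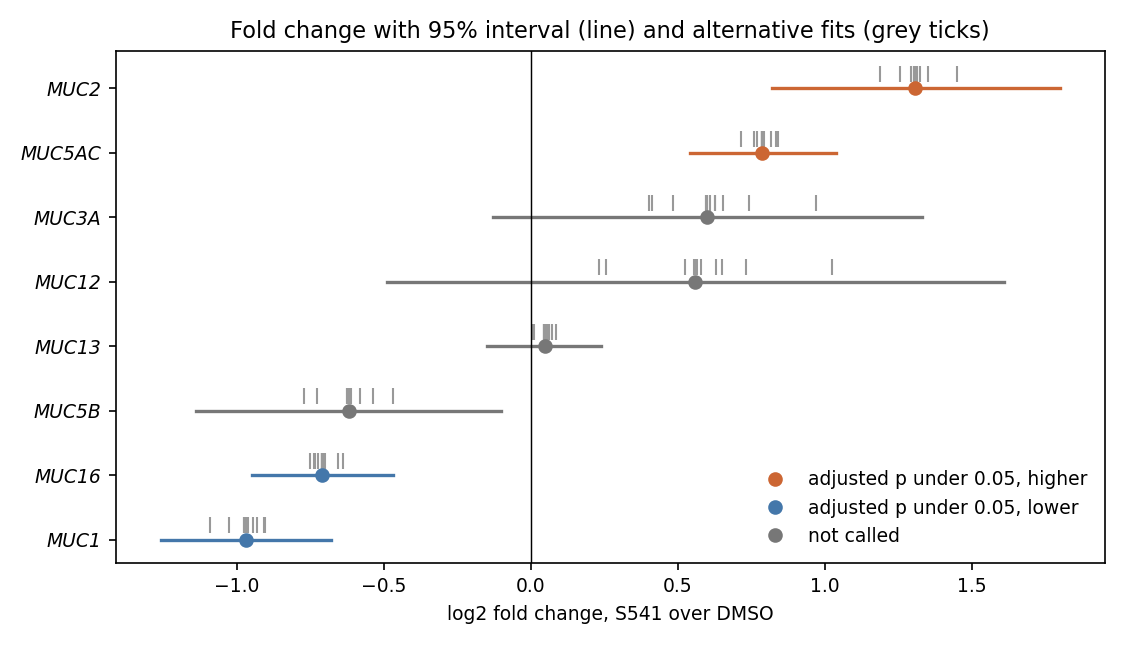
The x axis gives the log2 fold change of S541 over DMSO for the 8 tested mucins (dot, edgeR; line, 95% interval; grey ticks, the alternative fits; colour, the call). *MUC2* and *MUC5AC* lie above 0, *MUC1* and *MUC16* below it with all their ticks, and *MUC13* lies at 0.05.

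The 4 called mucins were significant in the authors' deposited table as well, with Q-values of 1.07e-05 for *MUC1*, 0.00144 for *MUC16*, 0.00064 for *MUC5AC* and 0.00102 for *MUC2*. The log2 fold changes in the authors' deposited table were −0.97, −0.71, 0.78 and 1.30. None of the 10 members was among the 302 genes marked as differential in the authors' deposited table.

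To compare members with each other, levels were divided by the length of their exons together (CPM per kb). In DMSO, *MUC13* came first with 28.7 ± 1.24 CPM per kb (SD, n = 3), then *MUC1* with 9.66 ± 0.674, *MUC5AC* with 1.34 ± 0.114 and *MUC16* with 1.09 ± 0.0620. *MUC5B* (0.215 ± 0.0316), *MUC3A* (0.178 ± 0.0703) and *MUC2* (0.113 ± 0.0194 CPM per kb) followed, and the libraries of *MUC3A* overlapped those of both its neighbours. After S541 the first 4 kept their places, at 29.6 ± 1.61 for *MUC13*, 4.93 ± 0.692 for *MUC1*, 2.31 ± 0.133 for *MUC5AC* and 0.668 ± 0.0535 CPM per kb for *MUC16*. *MUC2* (0.282 ± 0.0174 CPM per kb) and *MUC3A* (0.272 ± 0.0657) then overlapped, and *MUC5B* (0.140 ± 0.0290) came below them. *MUC12* was eighth in both groups (0.0414 ± 0.0214 and 0.0608 ± 0.0205 CPM per kb, overlapping), and *MUC4* and *MUC20* were last.

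The ratio of *MUC5AC* to *MUC1*, both per kb, was 0.121, 0.157 and 0.141 with DMSO and 0.532, 0.479 and 0.413 with S541. By the deposited FPKM (fragments per kb of gene and per library size) the same ratio was 0.259 to 0.340 in DMSO and 0.890 to 1.15 in S541, since the length implied by the FPKM of *MUC1* was 10153 bases, 2.15 times its exon bases and longer than the span of the gene. For *MUC5AC* that length was 17448 bases, equal to its exon bases, so the FPKM of different members are not on 1 length scale. Of the summed level of the 10 members per kb, gel-forming mucins made up 3.89 to 4.15% in DMSO and 6.99 to 7.25% in S541, and *MUC1* with *MUC16* 24.0 to 27.6% and 13.1 to 16.6%. Most of the gel-forming share was *MUC5AC* (mean 3.24% in DMSO, 6.03% in S541), while *MUC5B* went from 0.521 to 0.364%. *MUC1* and *MUC16* are only the membrane members that fell. The mean share of *MUC13*, whose level was not called, went from 69.4 to 77.4%. The sum over the 10 members was 40.1, 41.4 and 42.6 CPM per kb in DMSO and 40.0, 36.3 and 38.7 in S541.

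**Figure D4:**
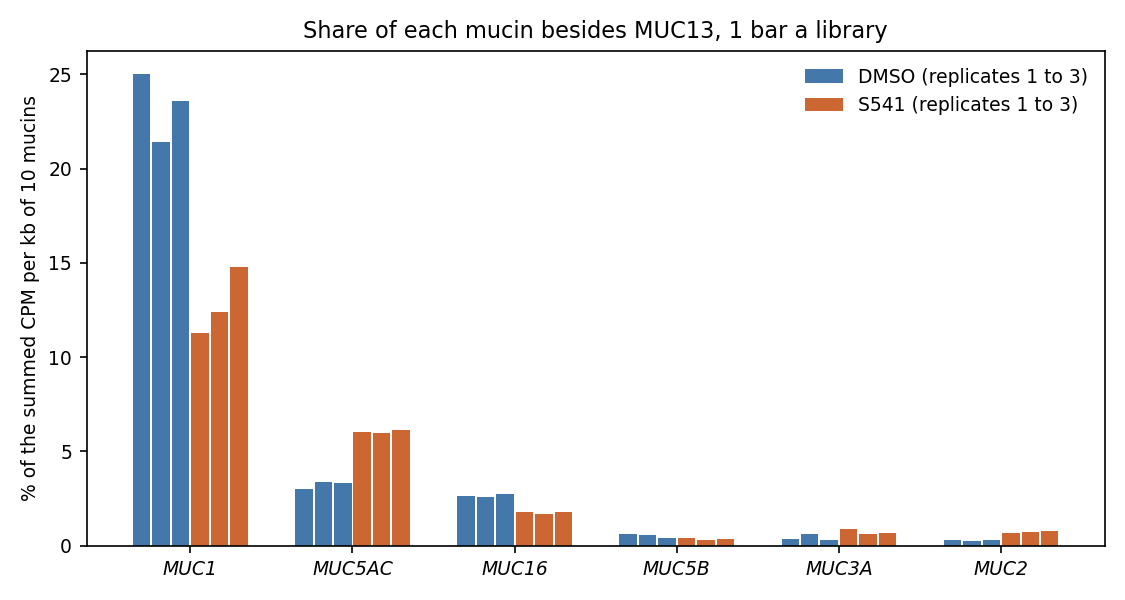
The y axis gives the percentage of the summed CPM per kb of the 10 mucins held by each of 6 members (x axis), with 1 bar a library (blue, DMSO; orange, S541). *MUC1* goes from 21.4 to 25.0% in DMSO to 11.3 to 14.8% in S541, and *MUC5AC* from 3.01 to 3.38% to 5.95 to 6.11%; *MUC13*, not drawn, holds the most.

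The promoters of *MUC1*, which fell, *MUC2*, which rose, and *MUC13*, which was not called, are shown as the 250 bases before the RefSeq start (GRCh38.p14). RefSeq records were found for 7 of the 10 members, and for *MUC16* they lie outside the gene's span in the table. The RefSeq start of *MUC13* lies 19068 bases inside the edge of its gene in the table, so its window is the promoter of the RefSeq transcript and not of the outermost start in the table. Capitals mark matches, on either strand, to TGANTCA (AP-1), GGGCGG (GC box), TTCNNNGAA (STAT), GGAAG (core of ETS sites) or TATAAA.
MUC1, chr1:155192916-155193165, minus strand: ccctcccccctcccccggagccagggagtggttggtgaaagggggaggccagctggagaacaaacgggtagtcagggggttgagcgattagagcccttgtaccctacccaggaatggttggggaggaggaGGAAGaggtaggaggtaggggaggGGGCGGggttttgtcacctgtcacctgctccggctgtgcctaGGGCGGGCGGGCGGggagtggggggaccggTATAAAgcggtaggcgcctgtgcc
MUC2, chr11:1074624-1074873, plus strand: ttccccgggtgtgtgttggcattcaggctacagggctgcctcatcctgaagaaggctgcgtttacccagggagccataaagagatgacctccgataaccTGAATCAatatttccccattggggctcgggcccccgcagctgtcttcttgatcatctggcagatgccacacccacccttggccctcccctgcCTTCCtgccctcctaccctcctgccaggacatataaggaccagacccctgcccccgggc
MUC13, chr3:124934752-124935001, minus strand: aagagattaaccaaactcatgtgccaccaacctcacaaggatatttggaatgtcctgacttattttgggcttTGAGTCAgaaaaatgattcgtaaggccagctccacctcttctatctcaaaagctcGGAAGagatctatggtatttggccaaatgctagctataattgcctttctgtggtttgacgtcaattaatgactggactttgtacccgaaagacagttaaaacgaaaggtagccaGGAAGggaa
The *MUC1* window held GGGCGG 4 times, 3 of them overlapping each other, and TATAAA starting 24 bases before the start, with a GC content of 66.0%. The *MUC2* and *MUC13* windows each held 1 match to TGANTCA and none to GGGCGG, at 59.6% and 41.6% GC. All 3 held GGAAG, and none held TTCNNNGAA. Over 34788 promoters of the same length, TGANTCA was in 6.59%, GGGCGG in 42.6%, TTCNNNGAA in 6.57%, GGAAG in 65.1% and TATAAA in 10.8%. A match of letters is a description of the window and not a bound site.

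Other mucin and mucin-like genes added little. Of 18 listed, 4 passed the filter and 0 were called by edgeR. The sialomucin *PODXL* had the most RNA, at 418.7 ± 23.3 CPM in DMSO and 512.8 ± 28.4 CPM in S541 (SD, n = 3), a log2 fold change of 0.29 (adjusted p = 0.0675, edgeR, unadjusted p = 0.00706), and its relative *PODXL2* had 0.09 (adjusted p = 0.671). *CD164* (0.05, adjusted p = 0.948) and *OVGP1* (0.33, adjusted p = 0.635) were not called either. *MUC6*, *PRG4*, *HAVCR1* and *MCEMP1* had from 10 to 19 counts over the 6 libraries, *MUC17* 9, *MUCL3* 5 and *MUC7* 2, while *MUC15*, *MUC19*, *MUC21*, *MUC22*, *MUCL1*, *EMCN* and *CD34* had 0.

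Of 39 enzymes that build the O-linked sugars of mucins, 24 were tested, 2 rose and 0 fell (8.33%, near the 8.19% of all genes), with a median log2 fold change of 0.15. Both act after the first sugar has been added. *B3GNT3*, which extends core chains, was at 8.37, 11.2 and 7.68 CPM in DMSO and 19.8, 20.4 and 23.8 CPM in S541 (1.23, SE 0.17, adjusted p = 0.00793, edgeR). *GCNT3*, the branching enzyme of mucin-secreting cells, was at 6.75, 6.00 and 5.99 CPM in DMSO and 11.6, 12.8 and 17.3 CPM in S541 (1.16, adjusted p = 0.0120). The call of *GCNT3* was lost without DMSO replicate 3 (adjusted p = 0.0528). The core 1 enzyme *C1GALT1* had 0.11 (adjusted p = 0.688).

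Among 34 regulators of mucin genes and goblet cell factors, 26 were tested, 3 rose and 2 fell (19.2%, beside 8.19% of all tested genes, median −0.12). The ETS factor *ETV4* went from 55.7 ± 1.28 to 110 ± 6.03 CPM (SD, n = 3, adjusted p = 0.00182, edgeR) and the aryl hydrocarbon receptor *AHR* from 37.5 ± 3.89 to 66.5 ± 5.69 CPM (adjusted p = 0.00775). *CREB3L1*, a factor of secretory cells, had 3, 7 and 4 counts with DMSO and 12, 19 and 26 with S541 (2.06, adjusted p = 0.0299). It was above 0.636 CPM in the S541 libraries alone (0.202 to 0.420 CPM in DMSO, 0.841 to 1.68 CPM in S541). It thus entered the test only through the group where it is high. The 26 tested, the 3 rises and the 19.2% include *CREB3L1*, and its rise is no support for that share. Its call was lost without DMSO 1 or 3 or S541 1, 2 or 3 (adjusted p from 0.0535 to 0.109). The epithelial ETS factor *EHF* was at 74.2, 21.5 and 53.9 CPM in DMSO and 14.1, 14.3 and 12.1 CPM in S541 (−1.89, adjusted p = 0.0284, edgeR). DMSO replicate 2 was the lowest of its group, and the call of *EHF* was lost without DMSO 1 or 3 or S541 1, 2 or 3 (adjusted p from 0.0639 to 0.102). With all libraries kept it was also lost with limma-voom (adjusted p = 0.0641) and with robust estimation of the spread in edgeR (0.0563). *SP1*, whose product binds GC boxes, fell by 0.40 (adjusted p = 0.0348) and is named to complete the count, after its values were seen. A link between *SP1* and the GGGCGG matches shown above was not tested. The goblet cell factor *SPDEF* was at 3.62 and 2.96 CPM (−0.29, adjusted p = 0.520).

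Of 33 genes of mucus packaging and mucus proteins, 13 were tested and 0 rose (7.69% called, beside 8.19% of all tested genes, median 0.002). *RAB3D*, a small GTPase of secretory vesicles, fell (19.1 ± 1.57 to 12.6 ± 1.26 CPM, SD, n = 3, −0.61, adjusted p = 0.0329, edgeR). That call was lost without any 1 of the 6 libraries (adjusted p from 0.0559 to 0.115), and with no filter on low counts (0.0621). *AGR2*, a disulfide isomerase needed for MUC2 folding in mouse, had 0 counts.

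Among 22 partners and cleavage enzymes of membrane mucins, 20 were tested, 2 rose and 2 fell (20% called, beside 8.19% of all tested genes, median 0.07). Mesothelin (*MSLN*), which binds MUC16, was at 238, 271 and 255 CPM in DMSO and 179, 177 and 199 CPM in S541 (−0.46, adjusted p = 0.0221, edgeR). Its call was lost without DMSO 3 or S541 1 or 2 (adjusted p from 0.0811 to 0.0953). The receptor kinase *MET* rose by 0.74 (adjusted p = 0.0108) and the sialidase *NEU1* by 0.65 (adjusted p = 0.0124). *MET* lost its call without S541 replicate 2 (adjusted p = 0.0518) and *NEU1* without DMSO replicate 3 (0.0558).

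**Figure D5:**
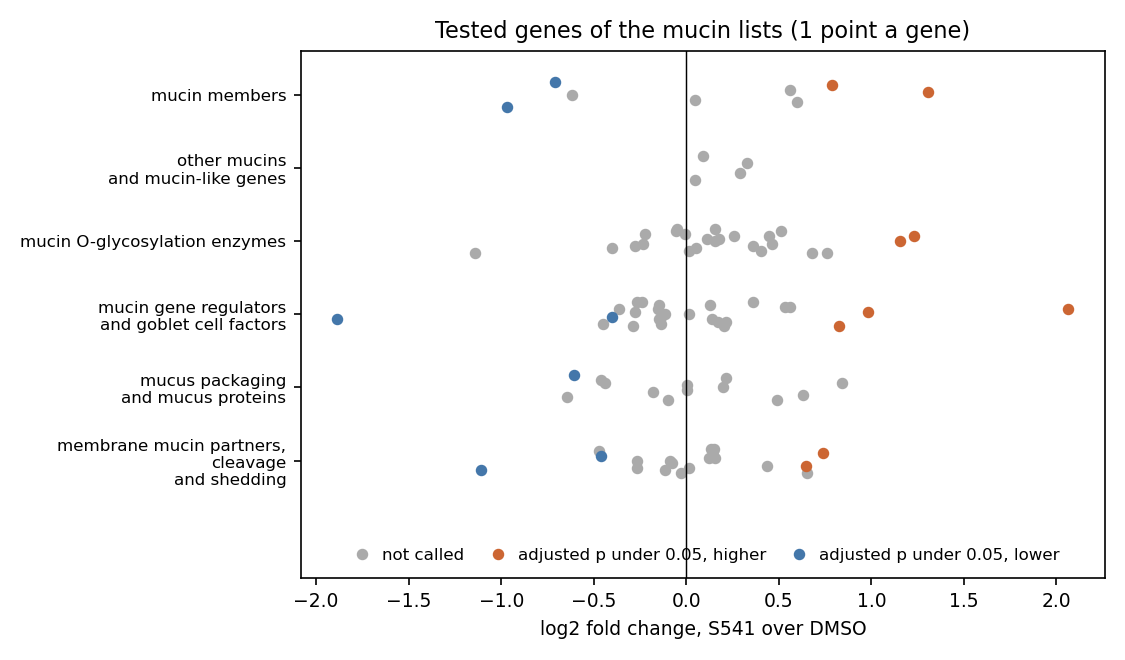
Each point is a tested gene, with its log2 fold change of S541 over DMSO on the x axis and its list on the y axis (orange, higher and blue, lower at an adjusted p under 0.05 in edgeR; grey, not called). Of the 8 tested mucin members 4 are called, beside 2 of 24 sugar-chain enzymes and 0 of 4 other mucins. Of the 26 regulators 19.2% are called, of the 20 partners and cleavage enzymes 20% and of the 13 packaging genes 7.69%. The 19.2% includes *CREB3L1*, which entered the test only through S541, where it is high, and is no support for that share. The share over all tested genes is 8.19%.

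In the epithelial and lung marker list, the keratins *KRT18* (−0.63, adjusted p = 0.00750, edgeR) and *KRT8* (−0.50, adjusted p = 0.0124) and the lipid transporter *ABCA3* (−0.44, adjusted p = 0.0129) fell. The keratin *KRT80* rose (0.45, adjusted p = 0.0350). Called were 4 of 9 tested (44.4%), beside 8.19% of all tested genes. The median log2 fold change of the 9 was 0.22, and 5 of them were above 0. The 5 not called were *KRT19* (1.71), *CLDN4* (0.46), *KRT7* (0.25), *EPCAM* (0.22) and *CDH1* (−0.92). *KRT19* reached 0.636 CPM in S541 libraries alone and *CDH1* in DMSO libraries alone, so each entered the test through the group where it is higher. *PDGFRB* fell among 7 tested markers of other cell types (−0.96, adjusted p = 0.0490), 14.3% of them. Calls were lost for *KRT8* without S541 1 or 2 (adjusted p = 0.0642 and 0.0631), *ABCA3* without DMSO 3 or S541 1 or 2 (0.0593 to 0.0655) and *KRT80* when any library but DMSO 2 was left out (0.0800 to 0.120). Testing without a filter on low counts ended the call of *KRT80* too (0.0673). That of *PDGFRB* was lost without any 1 of the 6 libraries (0.0680 to 0.164), and also under upper-quartile scaling (0.0501), with no filter on low counts (0.0881) and with limma-voom (0.0580).

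The pattern over the 6 libraries was compared between the 2 members with the highest CPM and 9845 other coding genes with at least 10 CPM, by the root mean square difference of centred log2 CPM. Nearest to *MUC16* were *PNPLA6*, a phospholipase (0.0520), the transcription factor *TBX3* (0.0559) and the tight junction gene *TJP3* (0.0581), with log2 fold changes of −0.66, −0.70 and −0.71. The call of *TJP3* was lost without DMSO 1 or 3 or S541 1 or 2 (adjusted p from 0.0571 to 0.0718, edgeR). Nearest to *MUC13* were *ECI2* (0.0243), *NCKAP5L* (0.0267) and *XPNPEP3* (0.0270), with log2 fold changes of 0.02, 0.02 and 0.05. The measure rests on 6 libraries that share 2 groups, so genes that differ alike between the groups come out near each other.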

How the data were processed

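RNA-seq of A549 cells had been deposited as a table of 58302 genes. The counts were whole numbers per gene made by the authors and were used as deposited, and the FPKM values were also the authors', per the file headers. The authors' log2 fold changes, p-values and Q-values come from the same deposited table and are quoted only where named. The build is hg38 and edgeR is named, per the submitters' processing notes, while aligner, counter and strand setting were not given in the sources used here. Counts that do not use strand would join reads of antisense partners.

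The test was that of edgeR 4.0.16, run in R 4.3.3 on the counts (TMM, filterByExpr with a minimum count of 10, glmQLFit and glmQLFTest, group as the only term), with 2-sided p-values adjusted over 15847 genes by the Benjamini-Hochberg method. Alternatives used RLE or upper-quartile scaling, no filter, at least 1 CPM in 3 libraries, DESeq2 1.42.0, limma-voom (limma 3.58.1), the replicate number as a term, and each library left out. Robust estimation of the spread was added after seeing the data. The functions were tested on simulated data.

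All members are named. From each other list, up to 4 called genes with the largest change whose higher group had at least 1 CPM, or the 2 most abundant where none was called, are named. 1 gene that this rule names is not reported here. The members and lists were chosen with earlier results of these data known. Loci, exons and 50-base stretches came from GENCODE 29, whose loci for the 10 members equal those in the table, and promoters from RefSeq. No pair of replicates agreed within sampling noise (lowest chi-square per degree of freedom 12.21).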

Additional observations from a re-analysis of the deposited data

How the results depend on the processing

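The direction of each of the 8 tested members held in every alternative that tested it. Of 56 alternative fits of the 4 called members, 54 kept the call, the 2 exceptions being *MUC2* without S541 replicate 1 or 2, and none of 55 fits of the others reached one. The number of called members was 4 in each alternative except those 2, and ranged from 3 to 4 with 1 library left out. The number of changed genes, 1298, ranged from 349 to 1330 with 1 library left out, and was 753 with no filter on low counts, where 30834 genes were tested. With the replicate number as a block it was 392, and 4 members were called, while *NEU1* (adjusted p = 0.0594 in edgeR), *EHF* (0.0571), *CREB3L1* (0.0642), *TJP3* (0.0648), *KRT8* (0.0672), *ABCA3* (0.0736), *MSLN* (0.0787), *RAB3D* (0.0828), *KRT80* (0.104) and *PDGFRB* (0.120) were not. The labels do not say that a number marks a shared batch. Same-numbered libraries had correlations of deviations of 0.106, −0.066 and −0.067. With 3 libraries a group, these values cannot tell whether same-numbered libraries share a batch. DMSO replicate 2 correlated best with S541 replicate 3 (0.182).

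Values of genes that were not called changed sign with 1 library left out. With S541 replicate 1 left out, the log2 fold changes were −0.229 for *CD164*, −0.144 for *OVGP1*, −0.031 for *ECI2*, −0.003 for *NCKAP5L* and −0.010 for *XPNPEP3*. The value of *CD164* was −0.122, −0.018 and −0.002 without DMSO 2, DMSO 3 and S541 2, and without DMSO 1 *ECI2* had −0.019 and *NCKAP5L* −0.013. The highest values of these genes with 1 library left out were 0.329, 0.578, 0.053, 0.039 and 0.105, in the order first given. The cause was not tested. Depth limits *MUC12*, *MUC4* and *MUC20*, whose counts were 82, 6 and 4 over the 6 libraries.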
